A study of Mus musculus with 31 samples.

Results

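The small leucine-rich proteoglycans (SLRPs) of the masseter muscle (MM), the main jaw-closing muscle, were followed through chemically induced injury and inflammation in mice. The members were taken by gene symbol as Dcn, Bgn, Aspn, Lum, Fmod, Prelp, Kera, Omd and Ogn, and all 9 of them had a row in the count tables of 22609 genes. Bulk RNA-seq of MM was performed for 31 libraries in 9 groups, all from adult male C57BL/6J mice and 1 library per mouse. In the CFA experiment, MM was injected with complete Freund's adjuvant (CFA, killed mycobacteria in mineral oil that provoke an immune reaction) and taken at 1d or 5d (n = 3 each), beside vehicle-injected mice (n = 3). In the collagenase type 2 (Col) experiment, MM was injected with Col, an enzyme preparation that digests collagen fibrils, at 0.2U or 10U, and 1 vehicle group (n = 3) served all Col groups. The 0.2U libraries formed 2 groups, labelled 1C and RPC (n = 4 each), and the labels do not say which day either of them stands for, while the study's text gives 1d and 5d for this dose. The 10U libraries were labelled 2d (n = 4), 6d (n = 3) and 12d (n = 4), while the study's text speaks of 1d and 14d in place of 2d and 12d. The days of the titles are used here. Vehicle was phosphate-buffered saline in both experiments, and the day on which vehicle mice were taken is not given in the labels.

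SLRPs are secreted proteins of the extracellular matrix built on a core of leucine-rich repeats, most of them carrying chondroitin, dermatan or keratan sulfate chains. They bind fibrillar collagens and set how thick and how regularly spaced the fibrils become, and several of them hold growth factors of the transforming growth factor-β family or myostatin in the matrix. In skeletal muscle they are made mainly by fibroblasts of the connective tissue sheaths and by tendon cells, and decorin is the member best known there. By sequence they fall into class I (decorin, biglycan and asporin, encoded by Dcn, Bgn and Aspn), class II (lumican, fibromodulin, PRELP, keratocan and osteomodulin, encoded by Lum, Fmod, Prelp, Kera and Omd) and class III (osteoglycin, also called mimecan, encoded by Ogn).

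Most of the SLRP genes lie in gene clusters. In the mm9 build, Aspn (chr13:49639812-49662926), Omd (chr13:49678135-49687978) and Ogn (chr13:49703440-49719869) follow each other with gaps of 15208 and 15461 bases. These genes lie within the span of Cenpp on the opposite strand and share 0 exon bases with it. Dcn (chr10:96942245-96980777), Lum (chr10:97028135-97035337) and Kera (chr10:97069817-97076322) form a second cluster with gaps of 47357 and 34479 bases. Prelp (chr1:135806881-135817991) and Fmod (chr1:135933831-135944854) are 115839 bases apart on chromosome 1, and Prelp shares 350 exon bases with the antisense gene Gm15851. Bgn (chrX:70728941-70741272) stands alone. Reads of 50 bases tell the members apart from each other and from other protein-coding genes. Of the 9, 8 share no 50-base window with transcripts of another protein-coding gene, and Bgn shares 0.25% of its windows. Other transcripts, such as Gm15851, were not part of this comparison.

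Expression was compared between genes as RPKM, which divides by exon length, and within a gene as CPM scaled by the trimmed mean of M-values. Averaged over the 31 libraries, Dcn was the most abundant SLRP mRNA at 411.6 RPKM (range 163 to 782). Bgn followed at 114 RPKM (14.3 to 458) and Fmod at 101.0 RPKM (13.6 to 361). Lum had 72.2, Aspn 68.0 and Ogn 46.9 RPKM on average. Prelp had 20.3, Kera 15.3 and Omd, named for its place in bone matrix, 6.92 RPKM. Every member was counted in every library, from 21 reads for Omd in CFA 5d mouse 2 to 47677 reads for Bgn in 10U Col 6d mouse 2. Dcn varied least over the mice, with a highest CPM 4.79 times the lowest, and Aspn most, at 79.8 times.

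The libraries held 14843778 to 29076671 reads on genes (median 20834472). Muscle fibre genes were high throughout the Col experiment, at 31340 to 162200 summed CPM over 8 markers in the 10U and vehicle libraries, so the labelled tissue was present. Salivary gland genes reached 21.0% of the reads of Col vehicle mouse 2, which was also the lowest vehicle library for all 9 SLRPs. Mouse 4 of the 10U Col 12d group was the highest of its group for all 9 SLRPs, with 1052 CPM summed over 5 tendon markers against 136 to 224 CPM in the other 3 mice. The 11 libraries of the 10U groups had 0.675% to 0.875% of reads that fell on more than 1 gene, against 0.147% to 0.317% in the other 20. Between 10U and vehicle this difference in counting cannot be told apart from the treatment, while libraries of the 10U groups were alike in it.

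**Figure D1:**
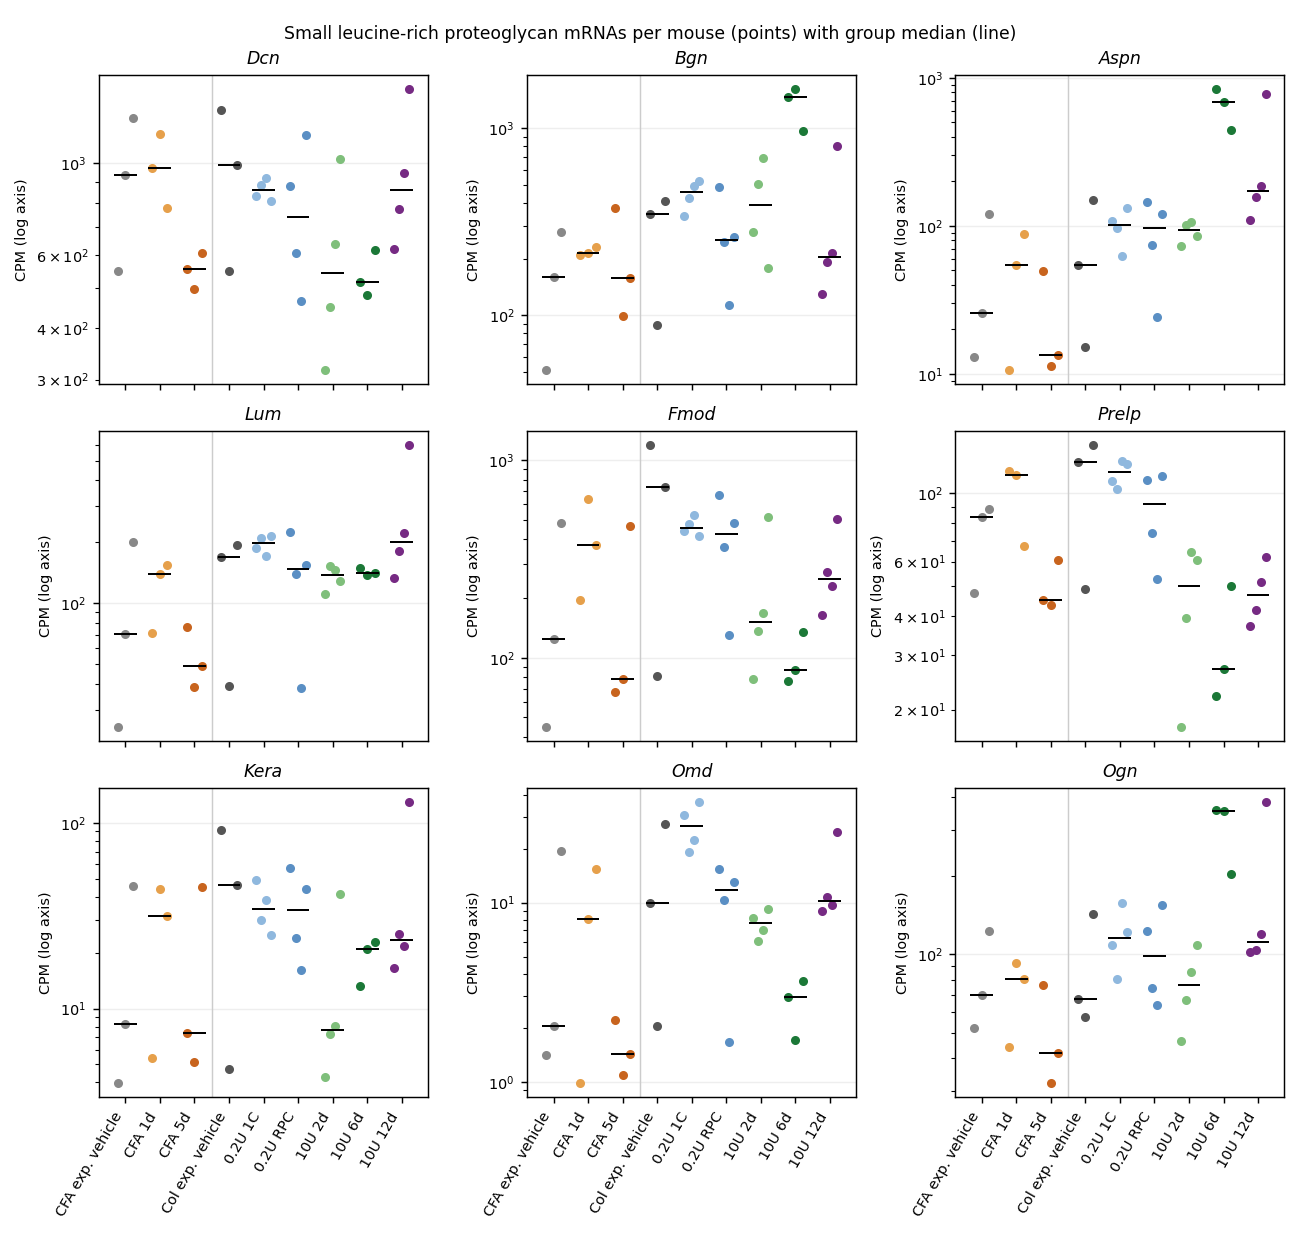
CPM of each SLRP gene (log axis) in each of the 31 mice (points) with the group median (line), the CFA experiment left and the Col experiment right of the grey line. Bgn and Ogn are highest at 10U Col 6d except for 12d mouse 4 in Ogn, Aspn is high at 6d and in 12d mouse 4, and Fmod, Prelp and Omd have low medians at 6d.

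The question whether adjuvant inflammation alters SLRP expression is addressed by CFA 1d and 5d against the vehicle of that experiment. At 1d post-CFA no member passed the adjusted p threshold of 0.05 in edgeR's quasi-likelihood test (0 of 9), where 0% of the 13944 tested genes did. None reached an unadjusted p under 0.05 (4.22% of all genes did) and DESeq2 called 0. The log2 fold changes ran from -0.18 for Ogn (95% interval -1.13 to 0.77) to 0.87 for Fmod (-1.07 to 2.81). For Omd the interval was -2.66 to 2.81, so changes past 2-fold in either direction remain possible there. At 5d post-CFA 0 of 9 members were called by edgeR, against 1.11% of 14026 tested genes, none had an unadjusted p under 0.05 (14% of all genes did), and DESeq2 called 0. Here the log2 fold changes ran from -2.26 for Omd (95% interval -4.63 to 0.11) to 0.40 for Bgn (-1.20 to 1.99), which leaves room for changes in either direction for Bgn. Salivary gland markers summed to 250100 to 319400 CPM in all 3 mice at 5d and to 62.0, 149 and 24290 CPM in vehicle, without a called marker among 8, and their part in the SLRP values was not tested. CFA vehicle mouse 3 had the highest vehicle value for all 9 genes, for instance 480.0 CPM of Fmod against 44.9 and 124 CPM in mice 1 and 2.

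Between 1d and 5d post-CFA all 9 members had lower estimates at 5d, with a median log2 fold change of -0.96 beside 0.004 over all tested genes. Dcn had 976, 1179 and 778 CPM at 1d and 555, 496 and 606 CPM at 5d. All 5d mice were thus below all 1d mice for Dcn, and the log2 fold change was -0.78 (SE 0.24). Prelp, whose protein anchors basement membranes to collagen, had 118, 114 and 67.3 CPM at 1d and 45.3, 43.4 and 60.7 CPM at 5d. Its groups did not overlap either, with a log2 fold change of -0.96 (SE 0.25) and the smallest adjusted p of the 9, 0.0720. Groups without overlap were found for 2 of 9 members and for 26% of all tested genes. No member was called by edgeR (0 of 9, against 5.84% of all tested genes), 4 had an unadjusted p under 0.05 beside 19.7% of all genes (Dcn, Prelp, Lum with a log2 fold change of -1.12 and Omd with -2.34), and DESeq2 called 4. Leaving out 1 mouse at a time gave 0 to 2 calls. The share of all genes called was not counted for DESeq2 or for these fits, and the edgeR share does not stand in for it. Salivary gland markers took 18.5% to 25.4% of the reads at 5d and 0.00510% to 1.05% at 1d, and 4 of 8 of them rose. Of the other marker lists, 2 of 3 Schwann cell markers rose and 3 of 4 neutrophil markers fell. Of 5 tendon and 9 fibroblast markers 0 were called, with median log2 fold changes of -1.16 and -0.05. The tendon markers summed to 192 to 260 CPM at 1d and to 38.2 to 154 CPM at 5d, without overlap. The part of all these cells in the SLRP values was not tested. In bulk RNA, fewer cells of a type and less RNA per cell cannot be told apart.

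After the low Col dose no SLRP gene passed the test. For 0.2U 1C, edgeR called 0 of 9 members and 0% of 14493 tested genes, and for 0.2U RPC it called 0 of 9 and 0% of 14269. No member had an unadjusted p under 0.05 in either comparison, where 12.6% and 13.5% of all genes did, and DESeq2 called 0 in both. In 1C the log2 fold changes ran from -0.52 for Fmod (95% interval -2.10 to 1.06) to 1.05 for Omd (-0.57 to 2.67). In RPC they ran from -0.69 for Fmod (-2.57 to 1.18) to 0.30 for Aspn (-1.54 to 2.14), and these intervals reach past a 2-fold change in at least 1 direction. The 1C mice were close to each other, with Dcn between 812 and 922 CPM and Fmod between 416 and 526 CPM. Some of them lay above every vehicle mouse, as for Bgn, where mice 2, 3 and 4 had 425, 489 and 526 CPM and the highest vehicle mouse 408 CPM, although mouse 1 (339 CPM) did not. RPC mouse 3 was the lowest of its group for all 9 genes, at 130 CPM of Fmod and 24.1 CPM of Aspn. Salivary gland markers took 4.73% to 33.1% of the reads in RPC and 0.0157% to 6.16% in 1C, and their part in these values was not tested beyond a fit with these markers as a covariate, which also gave 0 calls in both.

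At 10U Col 2d, edgeR called 0 of 9 members against vehicle, beside 2.22% of 14373 tested genes. Estimates ran from -1.68 for Kera to 0.50 for Bgn, with 7 of 9 members below 0 and a median of -0.71 beside 0.022 over all genes. Beside 33.3% of all genes, Prelp was the 1 member with an unadjusted p under 0.05 (log2 fold change -1.26, SE 0.51, adjusted p = 0.129), and DESeq2 called 0. Mouse 4 of the 2d group stood apart, with 518 CPM of Fmod against 78.3 to 169 CPM in the other 3 mice and 41.4 CPM of Kera, the gene of the corneal proteoglycan keratocan, against 4.26 to 8.05 CPM. Without it, Kera was called (adjusted p = 0.0424).

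At 10U Col 6d the SLRPs moved in opposite directions. Aspn, Bgn and Ogn rose and Fmod and Prelp fell, while the estimates for Dcn, Lum, Kera and Omd did not pass the test. With edgeR, 5 of 9 members were called beside 27.3% of 14281 tested genes. In the upward direction 3 of 9 were called against 14% of all genes, and in the downward direction 2 of 9 against 13.3%. All 5 also met the study's limits for differentially expressed genes (DEGs), a fold change over 2 and an RPKM over 1, which 8.22% of all genes met upward and 7.34% downward. An unadjusted p under 0.05 was reached by 7 members and by 43.4% of all genes. Because the members went both ways, their median log2 fold change was -0.87, beside 0.006 for all genes, and does not describe any of the 5.

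Of class I, asporin mRNA rose most. Asporin binds collagen and calcium and restrains transforming growth factor-β. Aspn had 54.4, 15.2 and 150 CPM in vehicle and 845, 690 and 447 CPM at 6d. All 6d mice were above all vehicle mice, by 8.70-fold in the fit (log2 fold change 3.12, SE 0.76, adjusted p = 0.0247). Biglycan, which assembles fibrils and, when released from the matrix, is a ligand of the innate receptors TLR2 and TLR4, followed. Bgn had 347, 88.9 and 408 CPM in vehicle and 1475, 1632 and 970 CPM at 6d. The groups did not overlap, and the change was 4.68-fold (log2 fold change 2.23, SE 0.56, adjusted p = 0.0269). Decorin, the closest relative of biglycan and the collagen-bound inhibitor of fibril widening, had 1345, 548 and 992 CPM in vehicle and 516, 480 and 617 CPM at 6d. For Dcn the 6d mice lay below vehicle mice 1 and 3 and around vehicle mouse 2, and the log2 fold change was -0.87 (95% interval -1.71 to -0.03, adjusted p = 0.107).

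Of class II, fibromodulin mRNA fell most. Fibromodulin binds the same site on collagen as lumican and is abundant in tendon. Fmod had 1194, 80.7 and 737 CPM in vehicle and 76.0, 87.1 and 135 CPM at 6d. Vehicle mouse 2 lay within the 6d range and the other vehicle mice far above it, and the fit gave a 6.94-fold lower level (log2 fold change -2.79, SE 0.83, adjusted p = 0.0426). Prelp had 126, 48.9 and 142 CPM in vehicle and 22.1, 27.1 and 49.9 CPM at 6d. Here too only vehicle mouse 2 fell into the 6d range, and the level was 3.28-fold lower (log2 fold change -1.71, SE 0.47, adjusted p = 0.0329). Prelp shares 350 exon bases with an opposite-strand gene, and the part of the counting difference between 10U and vehicle in its value was not tested. Among the 10U groups its log2 fold changes were -0.45 (2d to 6d), 0.56 (6d to 12d) and 0.16 (2d to 12d), and none passed edgeR's test. Lum had 168, 39.0 and 192 CPM in vehicle and 149, 137 and 141 CPM at 6d. The 6d mice were within 1 narrow band inside the vehicle range, with a log2 fold change of 0.06 (95% interval -1.13 to 1.24), so that the interval reaches past a 2-fold difference either way. Omd had 9.89, 2.06 and 27.3 CPM in vehicle and 2.96, 1.71 and 3.65 CPM at 6d, with a log2 fold change of -2.29 (SE 0.81, adjusted p = 0.0702). Kera had 91.3, 4.72 and 46.0 CPM in vehicle and 13.2, 21.0 and 22.9 CPM at 6d, inside the vehicle range (log2 fold change -1.36, adjusted p = 0.236).

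Osteoglycin of class III, a regulator of collagen fibril diameter in skin and tendon, rose. Ogn had 67.6, 57.3 and 143 CPM in vehicle and 357, 354 and 203 CPM at 6d. The groups did not overlap and the change was 3.32-fold (log2 fold change 1.73, SE 0.41, adjusted p = 0.0220). Aspn, Bgn and Ogn were thus the 3 of 9 members whose groups did not overlap, where 47.2% of all tested genes had groups without overlap. Omd, which lies between Aspn and Ogn on chromosome 13, had an estimate of the opposite sign.

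The number of calls at 6d rested on single mice. It was 0 without vehicle mouse 1 and without 6d mouse 1 or mouse 2, 3 without vehicle mouse 3 or 6d mouse 3, and 8 without vehicle mouse 2, while the estimates of Bgn (1.78 to 2.60), Aspn (2.62 to 4.20), Ogn (1.47 to 2.25), Fmod (-3.34 to -2.10) and Prelp (-2.14 to -1.44) kept their signs. DESeq2 called 7 members. How many of all tested genes were called was not counted in these fits or in DESeq2. The moves in the number of members therefore cannot be set against the background.

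**Figure D2:**
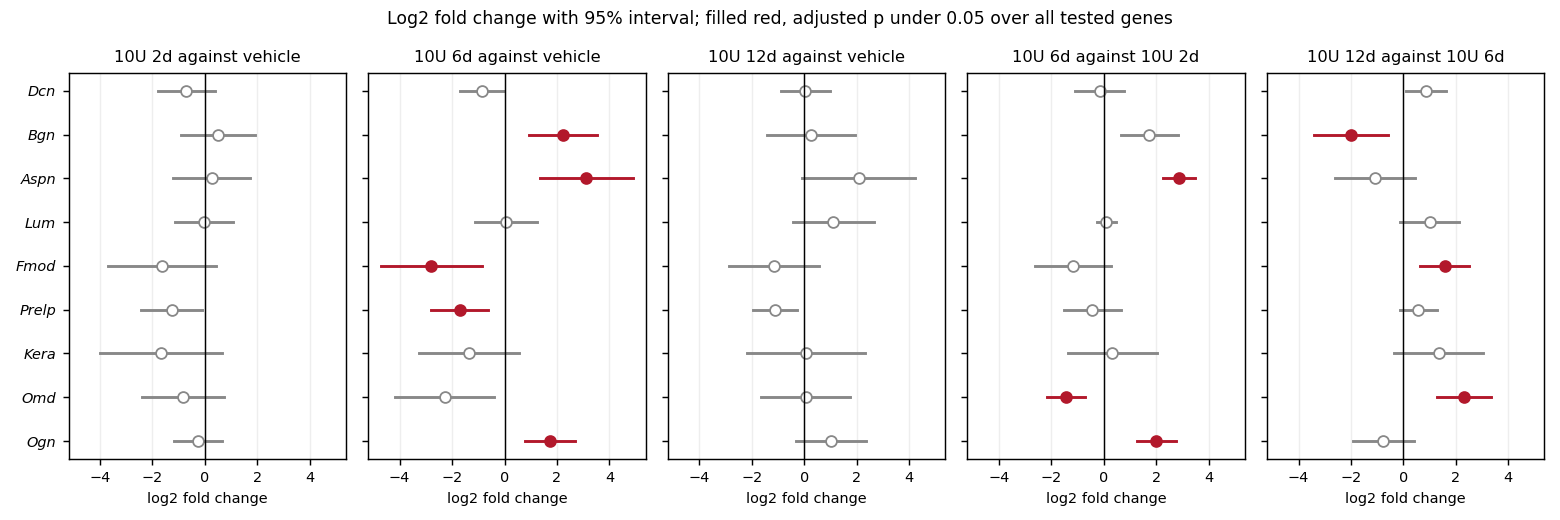
Log2 fold change (points) with 95% interval (lines) of each SLRP gene in 5 comparisons that involve 10U Col, filled red where the adjusted p over all tested genes is under 0.05. At 6d against vehicle Bgn, Aspn and Ogn are to the right of 0 and Fmod and Prelp to the left, and at 2d and 12d against vehicle no gene is filled.

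Markers of other cells moved beside these values. Per the study's methods, tendon was kept out of the dissected muscle as far as possible. The 5 tendon markers summed to 517 to 628 CPM at 6d and to 51.1, 343 and 479 CPM in vehicle, and none of them was at 0 in every mouse of either group. They did not move together, since Scx, a transcription factor of tendon progenitors, rose by 2.11 on the log2 scale, Comp, a cartilage and tendon matrix protein, fell by 2.50, Mkx fell by 1.33, and Thbs4 (1.05) and Tnmd (-0.40) did not pass the test. All 7 macrophage markers rose, from a sum of 133 to 442 CPM in vehicle to 1294 to 2566 CPM at 6d. Of 9 fibroblast markers 2 rose (Mfap5 and Col15a1) and 3 fell (Gsn, Clec3b and Ly6a). Their sum was 2339 to 4370 CPM in vehicle and 1096 to 1381 CPM at 6d, of which the gelsolin gene Gsn alone was 1751 to 3540 CPM and 298 to 621 CPM. The 9 salivary gland markers summed to 70.9, 70100 and 299600 CPM in vehicle and to 1.71 to 7.01 CPM at 6d. Muscle fibre markers summed to 103500 to 162200 CPM in vehicle and 33170 to 61740 CPM at 6d, and 3 of 8 fell. Bone markers, of the tissue for which Omd is named, summed to 13.1 to 170.0 CPM in vehicle and 3.97 to 31.8 CPM at 6d, and 3 of 5 fell. Of the remaining lists, 6 of 6 keratinocyte, 2 of 3 neutrophil, 2 of 3 Schwann cell, 2 of 5 adipocyte and 1 of 2 cartilage markers fell, and 0 of 4 endothelial markers were called. With the mean log2 CPM of the tendon markers as a covariate 8 members were called at 6d, and with that of the salivary gland markers 0 were. The sums of both lists did not overlap between vehicle and 6d. The fits used the mean log2 CPM instead, and its spread within the groups is not given here. For these fits the share of all genes called was not counted either, so no conclusion on such cells is drawn from them. The part of other cells in the result was not tested otherwise.

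**Figure D3:**
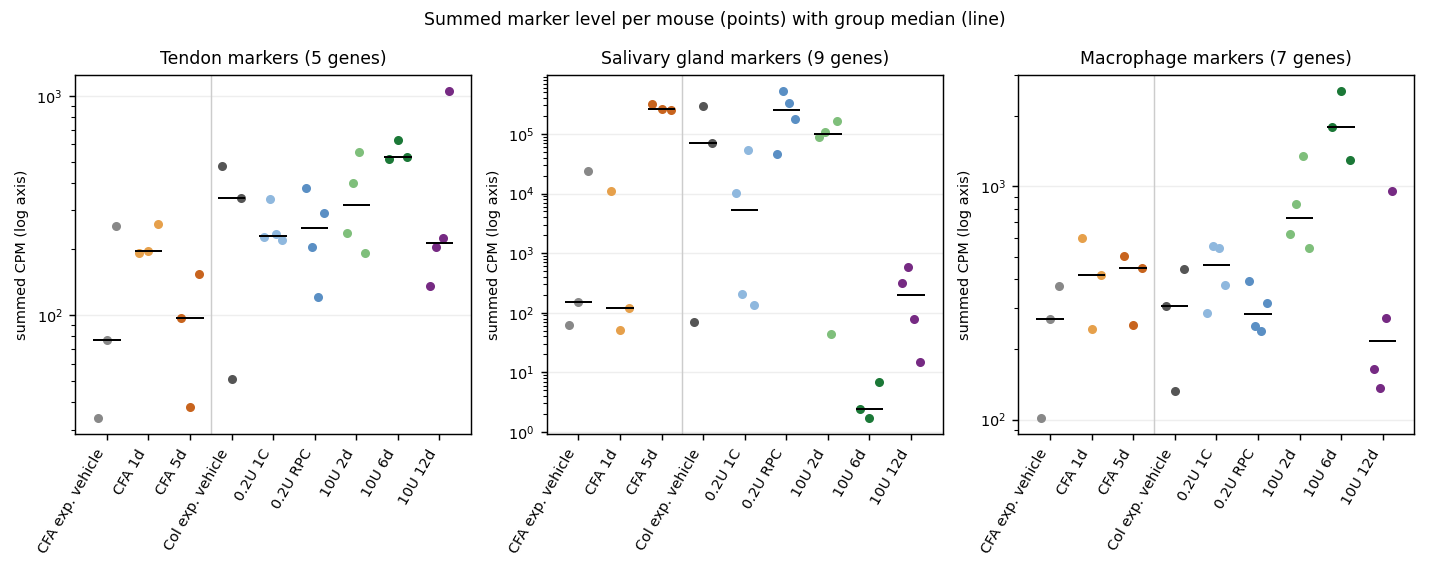
Summed CPM (log axis) of 5 tendon, 9 salivary gland and 7 macrophage marker genes per mouse (points) with the group median (line). Tendon sums at 10U Col 6d (517 to 628 CPM) exceed the vehicle sums (51.1 to 479 CPM), macrophage sums are 1294 to 2566 CPM at 6d, and salivary gland sums are under 8 CPM in that group alone.

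The promoters of the 5 called genes are shown because these genes changed together but in opposite directions. RefSeq promoters of 300 bases, 250 before and 50 after the transcript start in GRCm38.p6, were matched by symbol for 7 of 9 members, and Dcn and Lum had no entry. Capitals mark matches to 6 motifs searched on both strands, which were the TATA box letters TATAAA, the CCAAT box, the GC box letters GGGCGG, the AP-1 letters TGANTCA, the TEAD letters GGAATG and the RUNX letters TGTGGT. Sequences are given 5′ to 3′ on the strand of the gene.
Aspn (chr13:49544193-49544492, plus strand): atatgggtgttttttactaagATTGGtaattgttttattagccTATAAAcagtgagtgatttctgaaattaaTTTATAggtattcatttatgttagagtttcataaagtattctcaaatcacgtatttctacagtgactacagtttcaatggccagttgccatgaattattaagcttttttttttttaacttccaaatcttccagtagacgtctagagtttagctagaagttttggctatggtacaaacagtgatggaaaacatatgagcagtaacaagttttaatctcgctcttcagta
Ogn (chr13:49607765-49608064, plus strand): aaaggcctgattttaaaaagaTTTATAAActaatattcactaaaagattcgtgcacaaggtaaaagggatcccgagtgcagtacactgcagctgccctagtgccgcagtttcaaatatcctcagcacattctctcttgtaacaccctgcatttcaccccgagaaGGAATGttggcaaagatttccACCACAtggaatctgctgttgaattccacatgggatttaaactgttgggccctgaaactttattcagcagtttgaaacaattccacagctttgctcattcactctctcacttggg
Bgn (chrX:73483351-73483650, plus strand): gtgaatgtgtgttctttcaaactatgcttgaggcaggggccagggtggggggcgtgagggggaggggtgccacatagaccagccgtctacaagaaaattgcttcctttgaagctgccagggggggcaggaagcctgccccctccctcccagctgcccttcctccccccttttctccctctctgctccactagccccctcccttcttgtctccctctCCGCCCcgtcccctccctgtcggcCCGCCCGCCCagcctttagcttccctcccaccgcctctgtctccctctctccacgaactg
Fmod (chr1:134037004-134037303, plus strand): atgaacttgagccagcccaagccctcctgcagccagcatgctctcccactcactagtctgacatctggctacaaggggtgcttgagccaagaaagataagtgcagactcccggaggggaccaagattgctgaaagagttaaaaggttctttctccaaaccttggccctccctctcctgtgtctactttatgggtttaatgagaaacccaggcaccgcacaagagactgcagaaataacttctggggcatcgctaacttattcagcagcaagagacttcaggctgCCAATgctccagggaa
Prelp (chr1:133921352-133921651, minus strand): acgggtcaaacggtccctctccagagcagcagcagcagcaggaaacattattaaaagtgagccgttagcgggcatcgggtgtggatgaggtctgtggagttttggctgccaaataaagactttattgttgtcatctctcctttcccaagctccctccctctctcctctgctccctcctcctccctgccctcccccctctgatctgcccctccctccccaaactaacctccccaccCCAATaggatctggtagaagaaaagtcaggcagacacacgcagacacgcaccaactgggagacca

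The 3 genes that rose did not share a promoter type. The Aspn window was 31% GC and the Ogn window 42.3%, below the 52.7% median of all 32851 promoters, and the Bgn window was 63.7% GC. TATAAA occurred in Aspn and Ogn and in 13.6% of all promoters, 178 to 229 bases before the annotated start. GGGCGG occurred 3 times in Bgn, 2 of them overlapping, and in 35.7% of all promoters. CCAAT occurred in Aspn, Fmod, Prelp and Kera and in 37.4% of all promoters. GGAATG occurred in Ogn and in 14.7% of all promoters. TGTGGT also occurred in Ogn and in 16.8% of all promoters. TGANTCA, found in 7.8% of all promoters, was in none of the 7 windows. A match is a stretch of letters and was not tested as a binding site.

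The comparisons among 10U groups ask when the changes arose and whether they lasted, between libraries that were alike in counting. From 2d to 6d, edgeR called 3 of 9 members, beside 8.73% of 14513 tested genes. Aspn had 73.2, 102, 105 and 85.8 CPM at 2d, all below the 6d mice, and rose 7.30-fold (log2 fold change 2.87, SE 0.27, adjusted p = 0.00241). Ogn had 46.7, 66.8, 85.2 and 108 CPM at 2d, again all below 6d, and rose 4.01-fold (log2 fold change 2.00, SE 0.32, adjusted p = 0.0146). Omd had 8.25, 6.10, 7.07 and 9.22 CPM at 2d, all above 6d, and fell by 1.44 on the log2 scale (SE 0.32, adjusted p = 0.0352). Bgn had 279, 501, 693 and 179 CPM at 2d, without overlap with 6d, but its log2 fold change of 1.73 (SE 0.47) had an adjusted p of 0.0604. Groups without overlap were thus found for 4 of 9 members and for 24.1% of all genes. Between these groups 3 of 6 bone markers fell, from a sum of 47.2 to 175 CPM at 2d to 3.97 to 31.8 CPM at 6d, as did 7 of 8 salivary gland, 3 of 4 neutrophil and 1 of 3 Schwann cell markers, while 2 of 7 macrophage and 1 of 9 fibroblast markers rose and 0 of 5 tendon markers were called. The part of these cells was not tested. Lum was the most even, with a log2 fold change of 0.10 and a 95% interval of -0.26 to 0.47, short of a 2-fold change at both ends.

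Leaving out each mouse in turn, Aspn stayed past the threshold between 2d and 6d in all 7 fits (adjusted p 0.000635 to 0.0182). The number of members called was 1 to 5, and calls over all genes were not counted in these fits. Ogn lost its call without 2d mouse 2 (adjusted p = 0.0576) and 6d mouse 1 (0.0638) or mouse 2 (0.0748), and Omd kept its call only without 2d mouse 3 or mouse 4. Without 2d mouse 4, whose values stood apart, Bgn (adjusted p = 0.0196) and Kera (0.00809) were called too, and without 2d mouse 3 Bgn was (0.0265).

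From 6d to 12d Bgn fell and Fmod and Omd rose. With edgeR, 3 of 9 members were called beside 26.4% of 14344 tested genes, and 4 of 9 had groups without overlap beside 36.4%, so both counts were near the background. Bgn had 129, 193, 215 and 801 CPM at 12d, all below 6d, and fell by 2.01 on the log2 scale (SE 0.61, adjusted p = 0.0459). Fmod had 165, 273, 232 and 504 CPM at 12d, all above 6d, and rose 2.98-fold (log2 fold change 1.57, SE 0.40, adjusted p = 0.0287). Omd had 8.95, 10.8, 9.75 and 24.8 CPM at 12d, all above 6d, and rose 4.94-fold (log2 fold change 2.31, SE 0.45, adjusted p = 0.0165). Dcn had 620, 775, 946 and 1515 CPM at 12d, above 6d in every mouse, with a log2 fold change of 0.86 and an adjusted p of 0.0804. Aspn had 110, 156, 186 and 776 CPM at 12d, and Ogn had 102, 104, 119 and 383 CPM. For both, mouse 4 lay within or above the 6d range and the other 3 mice below it, and neither passed the test (log2 fold changes -1.09 and -0.77). Beside these changes, 4 of 5 bone markers rose, to a sum of 50.3 to 226 CPM at 12d, as did 3 of 3 salivary gland, 1 of 5 tendon, 3 of 9 fibroblast, 2 of 3 Schwann cell, 1 of 4 neutrophil, 1 of 2 cartilage and 1 of 4 endothelial markers, and 4 of 7 macrophage markers fell. Their part in the SLRP values was not tested.

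These calls depended on the mice too. Without 12d mouse 4, 5 members were called, with Bgn at -2.92 (adjusted p = 0.000374), Aspn at -2.13 (0.000937), Ogn at -1.49 (0.00135), and Fmod and Omd as before. Without 6d mouse 1 or mouse 2 none was called, and Bgn kept its call only without 12d mouse 4. DESeq2 called 4 members. Calls over all genes were not counted for DESeq2 or for the fits without single mice.

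At 12d no member passed the test against vehicle, with wide intervals. In this comparison edgeR called 0 of 9 at 12d beside 1.23% of 14176 tested genes, 1 member had an unadjusted p under 0.05 beside 17.4% of all genes, and DESeq2 called 1. That member was Prelp in both, with 37.1, 41.9, 51.7 and 61.9 CPM at 12d and a log2 fold change of -1.11 (SE 0.36, adjusted p = 0.192). Its 12d mice were all below vehicle mice 1 and 3, and vehicle mouse 2 lay among them. Estimates ran from -1.16 for Fmod (95% interval -2.88 to 0.56) to 2.08 for Aspn (-0.08 to 4.24), and those of Fmod, Prelp, Aspn, Lum (1.11, -0.44 to 2.66) and Ogn (1.01, -0.32 to 2.34) were past a 2-fold difference. With both vehicle mouse 2 and 12d mouse 4 left out, Fmod and Prelp were called. Between 2d and 12d, 0 of 9 were called by edgeR beside 8.75% of 14459 genes, 4 had an unadjusted p under 0.05 beside 38.9% of all genes (Aspn at 1.81, Lum at 1.14, Ogn at 1.27 and Omd at 0.89), and DESeq2 called 3. Aspn alone had groups without overlap, beside 15.5% of all genes. Without 2d mouse 4, 4 members were called there, and without 12d mouse 4, 1 was. For DESeq2 and the fits with mice left out, no share of all genes was counted.

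Over all 6 Col groups together, 6 of 9 members differed among groups in edgeR's F test, beside 58.5% of 15385 tested genes. The members that differed were Aspn (adjusted p = 0.00241), Prelp (0.00439), Ogn (0.00920), Omd (0.0103), Bgn (0.0164) and Fmod (0.0465), while Dcn (0.220), Lum (0.191) and Kera (0.323) did not pass. Over the 3 CFA groups 0 of 9 passed beside 2.81% of 14363 genes, and Prelp alone had an unadjusted p under 0.05. Between the vehicle groups of the 2 experiments 0 of 9 were called beside 0.0426% of 14070 genes, with no unadjusted p under 0.05 (2.32% of all genes had one) and 0 DESeq2 calls. All 9 estimates were nonetheless higher in the Col vehicle, from 0.08 for Dcn to 1.64 for Fmod on the log2 scale.

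Ordered by mean log2 CPM over the 9 groups, 10U Col 6d was the highest group for Bgn, Aspn and Ogn and the lowest for Dcn, Fmod and Prelp. Bgn at 6d (mean 1359 CPM) did not overlap the next group, 0.2U 1C (445 CPM). For Aspn and Ogn the next group, 10U Col 12d, overlapped 6d through mouse 4. For Lum the order was led by 12d and 1C, and the lowest 1C mouse lay above the highest 6d mouse. All other neighbours in the order of any member overlapped in their ranges, including the lowest ranks of Dcn, where CFA 5d (552 CPM) and 10U Col 6d (538 CPM) came last. Omd was lowest in CFA 5d (1.57 CPM) and highest in 0.2U 1C (27.2 CPM).

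The makeup of the SLRP mRNA pool was also described. Summed over the 9 genes, the pool held 971 ± 509 RPKM (SD, n = 3) in Col vehicle, 657 ± 232 (n = 4) at 10U Col 2d, 1179 ± 159 (n = 3) at 10U Col 6d and 1064 ± 654 (n = 4) at 12d, where mouse 4 alone held 2027 RPKM. Dcn made up 55.6% ± 13.9 of it in vehicle and 24.1% ± 6.77 at 6d. In the same groups Bgn went from 7.80% ± 1.97 to 32.0% ± 4.68 and Aspn from 2.97% ± 2.28 to 23.5% ± 4.41. Fmod was 17.3% ± 10.3 in vehicle and 2.66% ± 1.25 at 6d. Dcn led the pool in every library except 6d mice 1 and 2, where Bgn did. At 12d Dcn again made up 50.4% ± 7.93, Bgn 7.82% ± 2.21 and Aspn 10.5% ± 3.89. These shares restate the counts above per length and carry no test of their own.

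**Figure D4:**
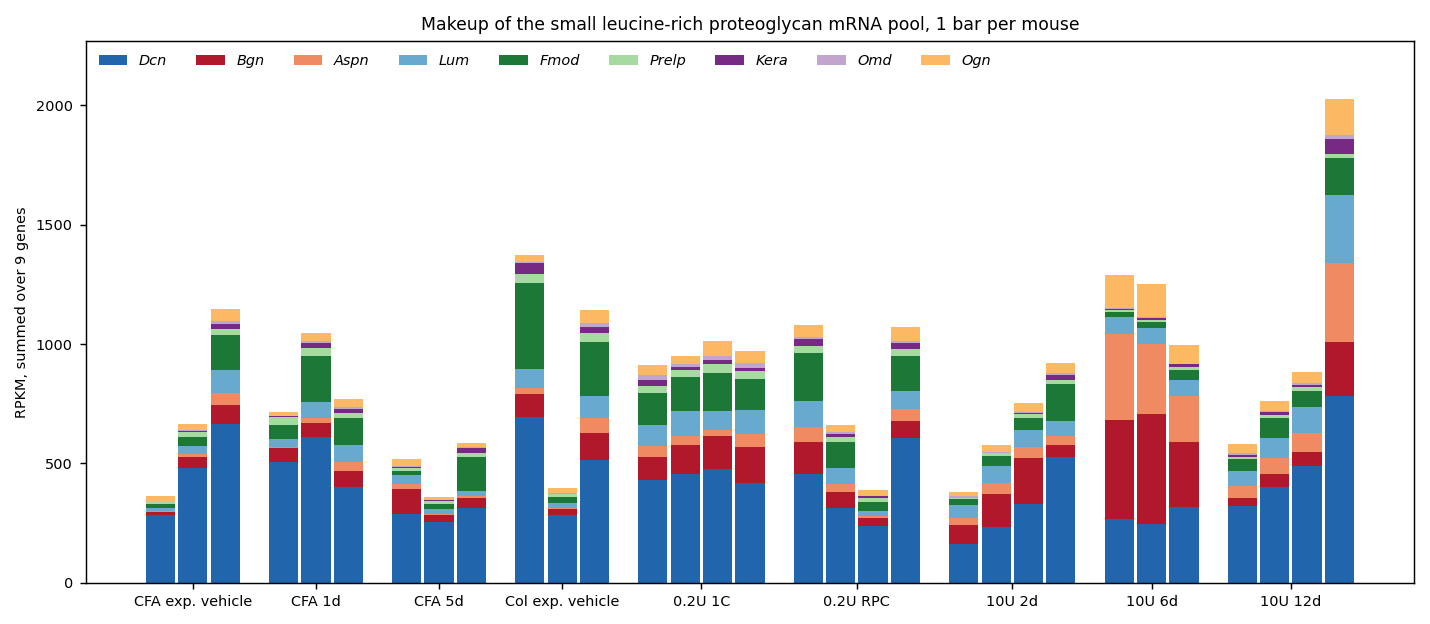
RPKM of the 9 SLRP genes stacked into 1 bar per mouse, by group. Dcn (blue) is the widest band in every bar but those of 10U Col 6d mice 1 and 2, where Bgn (dark red) is, and the bar of 12d mouse 4 is the tallest at 2027 RPKM.

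Because Bgn and Dcn are close relatives, their ratio within a library was also compared, which does not depend on scaling between libraries. In Col vehicle the log2 ratio of Bgn to Dcn counts was -1.96, -2.63 and -1.28, and at 10U Col 6d it was 1.51, 1.77 and 0.65. Bgn thus exceeded Dcn in reads in all 3 mice at 6d and in no vehicle mouse. The means differed by 3.27, with p = 0.1 in a two-sided exact permutation test, the smallest p that 3 against 3 mice can give (adjusted over 7 comparisons, 0.35). At 2d the ratio was -0.18, 0.16, 0.12 and -2.51, so that mouse 4 lay within the vehicle range and the other 3 mice above it (difference 1.35, exact p = 0.171). The 1C mice lay at -1.30 to -0.63, with a difference of 0.98 (exact p = 0.114). At 12d the ratio was between -2.26 and -0.92, a difference from vehicle of 0.12 (exact p = 0.8). The smallest p for 4 against 3 mice is 0.0571, so none of these comparisons could pass 0.05.

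**Figure D5:**
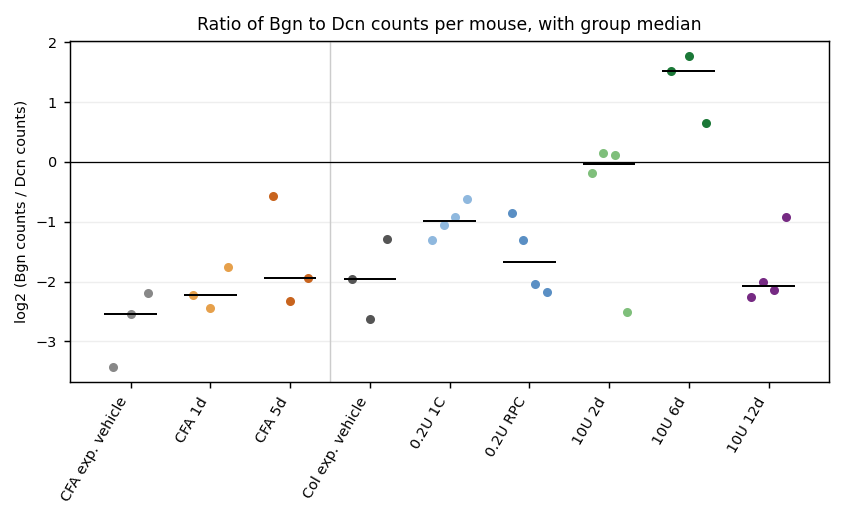
Log2 ratio of Bgn to Dcn counts in each mouse (points) with the group median (line), 0 standing for equal counts. All 3 mice at 10U Col 6d lie above 0 (0.65 to 1.77), as do 2 of 4 at 2d, and all other mice lie below 0.

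The genes that build, bind or cut SLRPs were counted in the same comparison of 10U Col 6d with vehicle, in lists made with earlier results of these data known. Of 14 fibrillar and fibril-associated collagen genes, the main ligands of SLRPs, 8 rose and 1 fell, with a median log2 fold change of 2.02. Col5a2 (2.87, SE 0.63), Col5a1 (2.76, SE 0.60) and Col5a3 (2.35, SE 0.35), the chains of the fibril-initiating collagen V, rose most, and the cartilage gene Col2a1 was the one that fell (-3.22, SE 0.99). Col3a1 rose by 2.24. Col1a1, the gene of the chief collagen of the muscle sheaths, had an estimate of 1.74 that did not pass the test (adjusted p = 0.158).

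Of 22 genes for chondroitin and dermatan sulfate synthesis, the chains that decorin and biglycan carry, 8 rose and 1 fell (median 0.34). The 3 that rose most were Chsy3, a chain polymerase (2.56, SE 0.36), Chst13, a sulfotransferase (2.10, SE 0.57), and Dsel, an epimerase (1.85, SE 0.35), and Chst11 fell by 0.63. Of 7 genes for keratan sulfate synthesis and tyrosine sulfation, the modifications of class II members, 2 rose, B3gnt7 (3.19, SE 0.72) and Chst2 (1.51, SE 0.32), and none fell (median 0.31). Of 18 genes for growth factors and receptors bound by SLRPs, 6 rose and 1 fell (median 0.46). The biglycan receptor gene Tlr2 (1.97, SE 0.43), the decorin receptor gene Met (1.55, SE 0.30) and Tgfb3 (1.53, SE 0.24) rose, and Mstn, the gene of myostatin, a brake on muscle growth, fell by 1.96 (SE 0.50).

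Of 13 tested genes for proteases that cut SLRPs and their enhancer, 4 rose and none fell (median 0.22), led by Adamts4 (3.60, SE 0.45), Gzmb (2.56, SE 0.70) and Mmp14 (2.51, SE 0.54). Of 7 tested genes for other leucine-rich repeat matrix proteins, Tsku (1.91, SE 0.34) and Podn (0.84, SE 0.21) rose and the cartilage gene Chad fell by 3.24 (SE 0.61). Of 17 tested genes for other proteoglycans 2 rose and 2 fell, with Vcan, the gene of the large proteoglycan versican of provisional matrix, at 3.995 (SE 0.47) and Sdc1 at 1.07, and with Esm1 at -1.60 and Spock2 at -1.23. The median of all tested genes in this comparison was 0.006 and 27.3% of them were called, so a list with about that share called is near the background. From 2d to 6d, where 8.73% of all genes were called and their median was -0.036, 10 of 14 collagen genes rose and none fell (median 2.01), and 5 of 22 chondroitin and dermatan sulfate genes rose and none fell (median 0.29).

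Across the 31 libraries the members formed pairs with shared profiles. Over the 36 pairs, Pearson's r of log2 CPM ran from -0.19 (Aspn with Prelp) to 0.91 (Aspn with Ogn) with a median of 0.53. Fmod and Kera had an r of 0.87, and after subtraction of group means 0.94. These are descriptions, since mice share groups, dissections and any differences in tissue makeup. With group means subtracted every pair was positive (0.39 to 0.94), so within a group mice that were high in 1 member tended to be high in the others.

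The genes outside the family whose profiles were most like a member's were found in the same way among 13501 genes. For Bgn they were Rcn3 (r = 0.97), Fkbp10 (0.96) and Col5a2 (0.96), which encode endoplasmic reticulum proteins of collagen folding and a collagen V chain. For Aspn they were Postn (0.96), encoding the matricellular protein periostin, Pkd2 (0.96) and Antxr1 (0.94), and for Ogn Angptl1 (0.94), Naalad2 (0.92) and Zfp354c (0.91). For Fmod the nearest were Comp (0.96), a tendon and cartilage gene, Adamtsl3 (0.86) and Cilp2 (0.855). For Kera they were the tenocyte gene Tnmd (0.91), Fam198a (0.88) and Cilp2 (0.875). For Lum the nearest were Ctsk (0.96), Fap (0.94) and Clec11a (0.92), and for Prelp Ccbp2 (0.92), Crispld2 (0.89) and Pcolce2 (0.88). For Omd they were Wif1 (0.94), Apol11b (0.93) and Rhag (0.92). For Dcn they were Fbln5 (0.85), encoding an elastic fibre protein, Adamtsl3 (0.84) and Pcsk6 (0.83). Dcn had the lowest of these nearest values.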

How the data were processed

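Total RNA of 31 MM samples was made into stranded poly(A) libraries and sequenced as single-end reads of 50 bases. Per the labels and the study's methods, the authors aligned reads to mm9 with TopHat2 and counted them per gene with HTSeq (versions not given in the sources used here), and deposited raw read counts of 22609 symbols per sample. The 5 rows that name no gene were left out of library sizes; reads on no gene were 6.69% to 22.5% of the total.

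Counts were analysed in R 4.3.3 with edgeR 4.0.16 (TMM scaling, genes reaching 10 counts in 3 or more of the libraries compared, quasi-likelihood F test, Benjamini-Hochberg adjustment over all tested genes, threshold 0.05). Only the libraries of the groups compared entered a fit. CPM and RPKM used TMM-scaled totals and mm9 exon lengths; correlations used log2 CPM with a prior count of 0.5. The test was first checked on simulated counts. DESeq2 1.42.0, the tool of the study, DESeq2 size factors, no count filter, a replicate block, pooled vehicle groups, a fit shared by all groups and leaving out each mouse were alternatives. Marker covariates, and leaving out both libraries that stood apart, were chosen after seeing the data. All 9 members were named, with at most 3 genes per direction from each list among those called and the 3 nearest genes per member; a few listed genes that did not pass were named after their values were seen. The members and lists were chosen with earlier results of these data known.

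Replicate numbers denote different mice. Deviations from group means of same-numbered mice correlated above 0.1 in every pair for CFA 1d with its vehicle (0.194 to 0.607) and for the 2 vehicle groups (0.104 to 0.682), and the block changed no call in either. No 2 libraries were identical. P-values measure the spread between the mice used.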

Additional observations from a re-analysis of the deposited data

Results flagged for a closer look

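Single mice stood far from their groups, judged by Dixon's test in groups of 4. Gene levels were judged as CPM without logarithm, and the ratio of Bgn to Dcn as log2. Of 40 such tests 7 were past the limit. The tests are not independent, since members varied together within groups, so this number cannot be set against a rate expected by chance. In 10U Col 2d, mouse 4 had 41.4 CPM of Kera and a log2 ratio of Bgn to Dcn of -2.51. In 10U Col 12d, mouse 4 had 801 CPM of Bgn, 776 CPM of Aspn, 130 CPM of Kera, 24.8 CPM of Omd and 383 CPM of Ogn. That mouse also had the highest tendon marker sum of its group, 1052 CPM, and the highest macrophage marker sum, 956 CPM.

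The response to 10U Col differed between days by the test of the difference itself. From 2d to 6d the log2 change was 2.87 for Aspn, 2.00 for Ogn and -1.44 for Omd. From 6d to 12d it was -2.01 for Bgn, 1.57 for Fmod and 2.31 for Omd.

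The count files also list reads that fell on more than 1 gene, which no comparison used. Their median share was 0.815% in the 11 libraries of the 10U groups, and the other 20 libraries had at most 0.317%. Over 2-fold differences between all 10U libraries and all others were found for 55 genes, 49 of them higher in 10U. Of those with a gene model 57.4% share exon bases with a gene on the opposite strand, against 17.5% of all genes.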

How the results depend on the processing

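No alternative changed the sign of the log2 fold change of Bgn, Aspn, Ogn, Fmod or Prelp between 10U Col 6d and vehicle, but the number of members past the threshold moved. From 5 it went to 1 with the replicate block (Prelp, adjusted p = 0.0450), to 8 with the tendon marker covariate, to 0 with the salivary gland covariate, to 8 without both libraries that stood apart, to 7 with DESeq2, to 4 with pooled vehicles, and to 0 to 8 when single mice were left out. At 2d against vehicle it was 1 in the fit shared by all libraries (Prelp, adjusted p = 0.0134) and 0 to 1 without single mice. At 12d against vehicle DESeq2 gave 1 and the fit without both libraries 2. Between CFA 5d and 1d, DESeq2 gave 4 and leaving out mice 0 to 2. Between 6d and 2d, leaving out mice gave 1 to 5 calls and the block 4. Between 12d and 6d the block gave 7 and leaving out mice 0 to 5, and between 12d and 2d DESeq2 gave 3 and leaving out mice 0 to 4. The cause of these moves was not tested, and the share of all genes called was not counted for these alternatives. The replicate numbers denote different mice, and in the 10U comparisons same-numbered mice did not deviate together (r from -0.404 to 0.339, with a pair under 0.1 in each comparison). Apart from the counts given here the block changed no number of calls. The F tests over groups gave 6 (Col) and 0 (CFA) under each alternative run.

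The estimates that changed sign were among those that did not pass the test, but not all were near 0. Fmod, at 0.87 for CFA 1d and -0.69 for RPC in the main edgeR test, was among them. Of 55 further estimates whose alternatives are not described here, 36 changed sign in at least 1 alternative. With pooled vehicles Fmod went to -0.14 at CFA 1d and 0.079 in 0.2U 1C, and Bgn to -0.077 at CFA 5d. With the block Fmod in 1C was 0.11 and Dcn from 2d to 6d 0.27. With the salivary gland covariate Fmod in RPC was 0.24 and Lum at 6d -0.64, and without both libraries that stood apart Lum was -0.40. Leaving out single mice moved Ogn at CFA 1d between -0.41 and 0.28, Bgn at CFA 5d between -0.32 and 1.09, Fmod in 1C between -1.05 and 0.18, Aspn in RPC between -0.19 and 1.44, Lum at 6d between -0.40 and 0.42, and Dcn from 2d to 6d between -0.38 and 0.22. It moved Bgn from CFA 1d to 5d between -0.74 and 0.34, Bgn from 2d to 12d between -1.17 and 0.14, Dcn between vehicles from -0.24 to 0.44, and the log2 ratio of Bgn to Dcn at 12d from -0.21 to 0.46. Omd rested on the fewest reads, as few as 21 in a library.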
